A study of Homo sapiens with 3 samples.

Results

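Lysine tRNAs were followed through 4 array probes, named Lys1h, Lys2h, Lys3h and Lys4h in the files, of 41 human tRNA probes in all. The 4 probes were taken by name, with earlier results of these data known. The bacterial lysine tRNA used as a spiked standard, E.c. Lys-2, was kept apart from them. Each probe was printed as 16 spots, so 64 of the 656 human spots read lysine tRNA. The probe names carry no anticodon, so which lysine tRNA each probe reads is unknown here, and the name could not be set against a sequence.

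The cells were MCF-10A, a non-tumorigenic human breast epithelial line. They were given siRNA against eIF3e, or a control siRNA, at 20 nM for 72 h. eIF3e is a subunit of eIF3, the complex that prepares the small ribosomal subunit for translation initiation. RNA of 2 knockdown cultures carried Cy3 and RNA of 3 control cultures carried Atto635, and they were read as 3 ratios of knockdown over control. Ratio 1 paired knockdown culture 1 with control culture 1, ratio 2 paired knockdown culture 1 with control culture 2, and ratio 3 paired knockdown culture 2 with control culture 3. No array had the dyes exchanged. Before labelling, 4 synthetic tRNAs of bacterial or yeast origin were added to every 2 µg of total RNA at 4 pmol each. The dyes were joined to the 3′ ends of the tRNAs by ligation. The labels place periodate oxidation, which makes the 3′ end of uncharged tRNA unfit for ligation, under the abundance procedure, so the values are ratios of tRNA that could be ligated, and whether uncharged tRNA was included cannot be told from the labels. RNA came from whole cultures, so fewer cells with a tRNA and less of it per cell cannot be told apart. The level of eIF3e itself was not analysed here.

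Lysine tRNAs carry lysine to the codons AAA and AAG. The anticodon CUU pairs with AAG, and the anticodon UUU, whose first base is heavily modified in the cytosol, reads AAA and can also read AAG. Both are charged by the lysyl-tRNA synthetase KARS1, which serves cytosol and mitochondria. RefSeq lists 27 nuclear lysine tRNA genes in assembly GRCh38.p14, 14 with the anticodon CTT (as DNA) and 13 with TTT, beside 9 pseudogenes and 1 mitochondrial gene, TRNK. How the 4 probes divide these genes among them is unknown here, so each value below is that of a probe and not of a gene.

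The 3 ratios rest on fewer independent measurements than their number. Of 57 scanner columns, 56 were the same in ratio 2 as in ratio 1, and the background-subtracted Atto635 intensity alone differed. Ratios 1 and 2 thus have the same Cy3 values in the tables. Whether ratio 2 had a Cy3 measurement of its own is unknown here. If it had, each ratio 2 value sets the Atto635 signal of one hybridisation against the Cy3 signal of another. The median intensity of unflagged spots was 2983.5 in Cy3 for ratios 1 and 2 and 2476 for ratio 3, and in Atto635 it was 1756.5, 1459 and 848 for ratios 1, 2 and 3. A dye control array, with 3184 in Cy3 and 1457 in Atto635, held RNA that the labels do not describe.

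All 4 lysine probes gave median signals well above their local background in both channels. Local background alone does not show that this signal is lysine tRNA, since spots printed with water also exceeded it by mean pixels. The median Cy3 signal of water spots was above that of Lys3h and Lys4h on every array. For ratio 3 it was 11207, above all 4 lysine probes. By median pixels water was dimmer than each lysine probe. Of 64 lysine spots, 1 of Lys3h was flagged in ratio 1 and 1 each of Lys3h and Lys4h in ratio 3, while the dye control had no flagged lysine spot. No unflagged lysine spot had a saturated pixel. The local background of lysine spots had medians of 34 to 38 in Cy3 and 28 to 30 in Atto635.

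Lys1h had a median Cy3 intensity of 7174.5 in knockdown culture 1 (4533 to 10839 over 16 spots) and 6102.5 in knockdown culture 2 (4386 to 7771). Its Atto635 medians were 4671.5, 4299 and 2275 in control cultures 1, 2 and 3. The control channel of ratio 3 was the dimmest for this probe, and the Cy3 median lay above the Atto635 median on every array, dye control included. Lys2h had Cy3 medians of 4745 and 3494.5 in knockdown cultures 1 and 2, against Atto635 medians of 2826.5, 2573 and 1240.5 in the control cultures. A pair of its spots on array 1 was dim in both channels, the lower at 530 in Cy3 and 354 in Atto635.

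Lys3h had Cy3 medians of 2458 and 1540 in the knockdown cultures, against 1486, 1054 and 552 in the control cultures. Lys4h had Cy3 medians of 1213.5 and 926 in the knockdown cultures, against 722.5, 520 and 294 in the control cultures. Every probe followed the same order over the control cultures, with culture 1 brightest and culture 3 dimmest, which is also the order of the whole-array medians. These raw intensities hold differences in labelling and scanning between dyes and arrays. Brightness also depends on each probe's hybridisation, so no probe's level is set against another's.

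**Figure D1:**
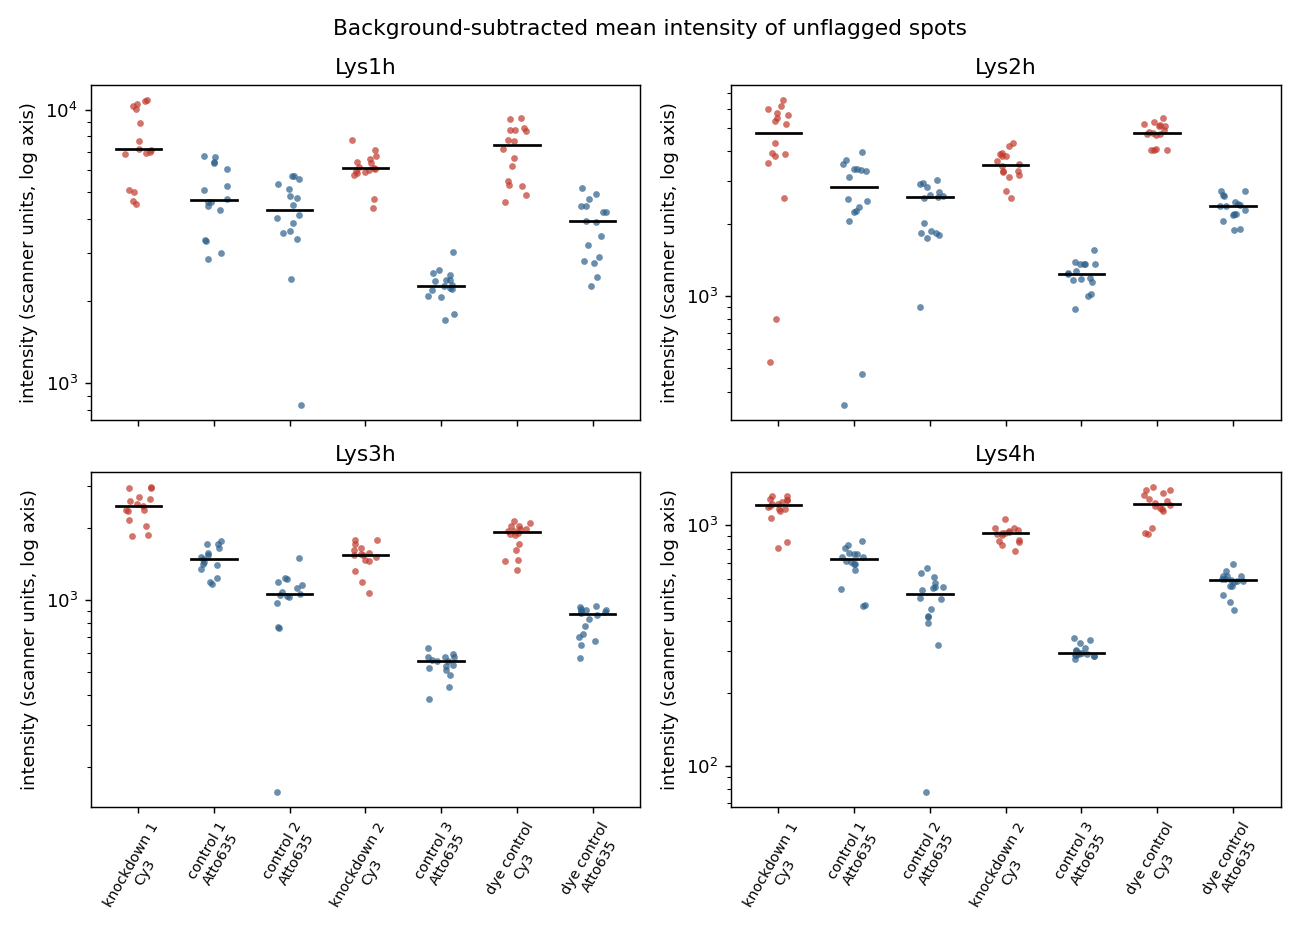
Background-subtracted mean intensity of every unflagged lysine spot (log axis, scanner units), for each culture and for the dye control, with Cy3 in red and Atto635 in blue and a bar at the median of the spots. The tables of ratios 1 and 2 hold the same Cy3 values for knockdown culture 1, which are drawn once. The control culture 3 medians, from 2275 for Lys1h to 294 for Lys4h, were the lowest of the 3 control cultures for each probe.

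Intensities were turned into log2 ratios of Cy3 over Atto635, taken as the median over spots after normexp background correction, with each array set so that the median of the 4 standards is 0. On this scale a positive value means more lysine tRNA signal in knockdown cells relative to the median of the standards. The standards differed among themselves. E.c. Ala-5 was at -0.17, -0.066 and -0.038 in ratios 1, 2 and 3, and Yeast Phe-3 at 0.31, 0.31 and 0.40. Their means were -0.093 and 0.34, and each lysine mean lay between these, so a positive value does not hold against every standard. Lys1h was at -0.055, 0.09 and 0.21 in ratios 1, 2 and 3, a mean of 0.08 ± 0.13 (SD, n = 3 ratios). Lys2h was at -0.0022, 0.17 and 0.28, a mean of 0.15 ± 0.14. Both were at or below the median of the standards in ratio 1 and above it in the other 2 ratios.

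Lys3h was at 0.012, 0.37 and 0.23, a mean of 0.20 ± 0.18, and was the only lysine probe above 0 in all 3 ratios. Of all 41 human probes 29 (70.7%) were above 0 in all 3 and 2 (4.88%) below 0 in all 3, with no lysine probe among those 2. Lys4h was at -0.0083, 0.24 and 0.29, a mean of 0.17 ± 0.16. The SD over ratios exceeded the mean for Lys1h and was slightly under it for the other 3.

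The median of the lysine probes went with that of the array as a whole. It was -0.0052, 0.20 and 0.26 in the 3 ratios, beside medians of 0.05, 0.26 and 0.28 over all human probes. Among the 41 human probes, ranked from the highest log2 ratio, Lys1h stood at 34, 34 and 31, Lys2h at 31, 28 and 21, and Lys4h at 32, 23 and 20. Lys3h stood at 28, 12 and 30, so its place in ratio 2 was unlike its place in the other ratios.

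Before subtraction of the dye control the 4 probes lay close together in ratios 1 and 3 and farther apart in ratio 2. From the lowest to the highest lysine probe the log2 ratios spanned 0.067 in ratio 1 and 0.08 in ratio 3, against 0.28 in ratio 2. The SD over the 4 probes was 0.029, 0.12 and 0.041 in the 3 ratios, against 0.19, 0.23 and 0.17 over all 41 human probes. That order did not hold with the dye control subtracted: the lysine probes then spanned 0.13, 0.10 and 0.18 in ratios 1, 2 and 3, with SDs of 0.055, 0.052 and 0.085, against SDs of 0.15, 0.20 and 0.18 over all 41 human probes. These spreads are descriptions of 4 probes chosen by name and were not tested.

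**Figure D2:**
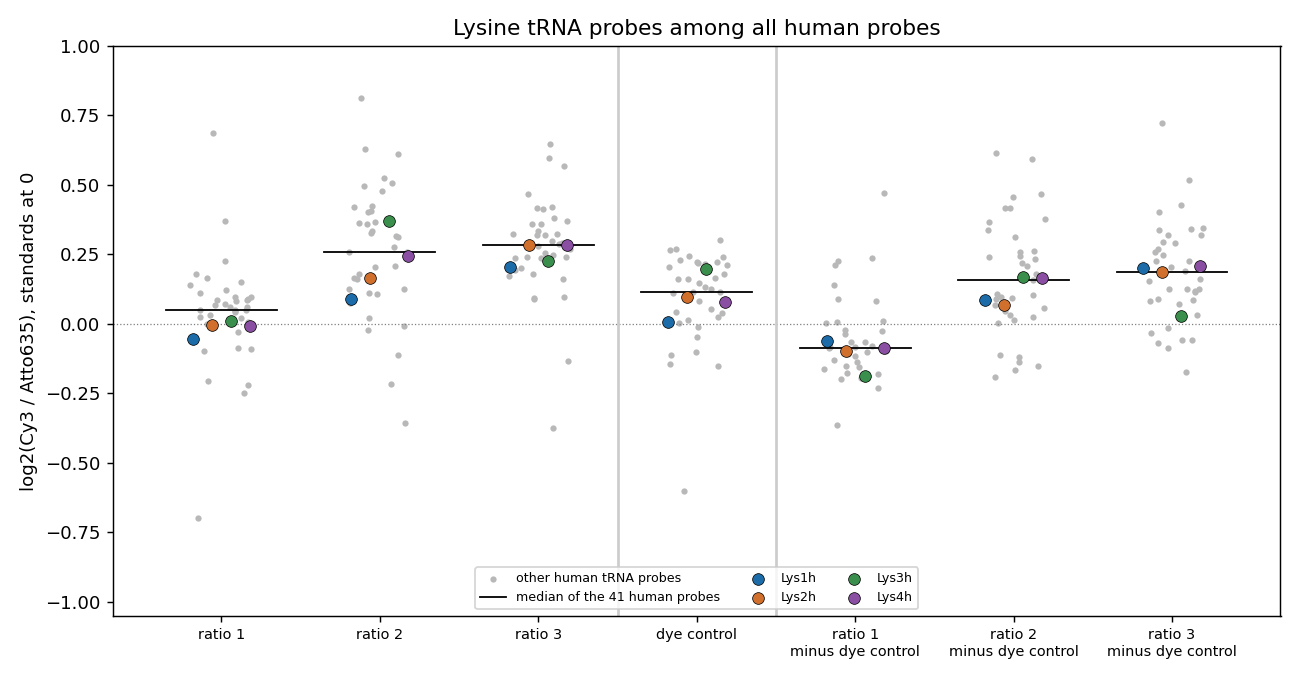
Log2 ratio of Cy3 over Atto635 per probe, with the median of the 4 standards of each array at 0, for the 3 ratios of knockdown over control, the dye control and the ratios after subtraction of the dye control. Grey points are the other human probes and the bar is the median of all 41. The lysine medians, -0.0052, 0.20 and 0.26, follow the bar over the 3 uncorrected ratios.

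Whether lysine tRNA differed between knockdown and control cells was tested with limma across all 41 human probes, with the knockdown culture as a block. None of the 4 lysine probes passed an adjusted p under 0.05, and none reached an unadjusted p under 0.05, where limma called 5 of all 41 (12.2%), 4 higher (9.76%) and 1 lower (2.44%), and 15 (36.6%) had an unadjusted p under 0.05. Lys3h had the highest lysine estimate, 1.15-fold in knockdown over control (95% confidence interval 0.961 to 1.39, limma adjusted p = 0.228). Lys4h was at 1.14-fold (0.95 to 1.37, limma adjusted p = 0.242) and Lys2h at 1.12-fold (0.936 to 1.35, limma adjusted p = 0.285). Lys1h was at 1.07-fold (0.891 to 1.29, limma adjusted p = 0.526).

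The median lysine estimate was 0.18 in log2 beside 0.21 over all human probes. The smallest estimate that limma called had a size of 0.42 in log2 (1.34-fold), and the intervals of Lys2h, Lys3h and Lys4h do not exclude a rise of that size, while that of Lys1h does. The intervals use a variance that limma pooled fully over probes, the same SE of 0.13 for each, and an assumed correlation of 0.5 between ratios 1 and 2. The absence of a lysine call did not hold in every fit. Without ratio 1 all 4 lysine probes were called higher, at log2 estimates from 0.15 to 0.30 (limma adjusted p from 0.00015 to 0.0425). That fit called 31 of 41 probes higher and 2 lower. With ratios 1 and 2 averaged into 1, Lys2h, Lys3h and Lys4h were called higher, at 0.18, 0.21 and 0.20 (limma adjusted p = 0.0422, 0.0226 and 0.0264). The averaged fit, in which ratio 1 still counts, called 28 higher and 1 lower. The SE of each lysine probe was 0.067 without ratio 1 and 0.081 with the average. What changed the calls was not tested.

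The dye control array gave a log2 ratio for each lysine probe that differs between them. On the standards' scale it was 0.0052 for Lys1h, 0.096 for Lys2h, 0.20 for Lys3h and 0.079 for Lys4h, beside a median of 0.11 over all human probes. Lys3h stood at rank 13 of 41 from the top, while Lys2h, Lys4h and Lys1h stood at 25, 27 and 33. All 16 spots of Lys3h lay above the median of the standards there, from 0.12 to 0.30. Those of Lys1h lay on both sides of that median, from -0.073 to 0.076.

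After subtraction of the dye control, each lysine probe's mean and its values in ratios 2 and 3 were closer to 0, while its value in ratio 1 was farther from 0, on the lower side. Lys1h was at -0.061, 0.085 and 0.20 in ratios 1, 2 and 3, a mean of 0.075 ± 0.13 (SD, n = 3 ratios). Lys2h was at -0.098, 0.069 and 0.19, a mean of 0.053 ± 0.14. Lys3h was at -0.19, 0.17 and 0.029, a mean of 0.0037 ± 0.18. Lys4h was at -0.087, 0.16 and 0.21, a mean of 0.095 ± 0.16. Each of the 4 was below 0 in ratio 1 and above 0 in ratios 2 and 3, as were the medians over all human probes, -0.086, 0.16 and 0.19.

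None of the 4 passed the test after that subtraction either, and none had an unadjusted p under 0.05, where limma called 3 of 41 (7.32%), each higher, and 8 (19.5%) had an unadjusted p under 0.05. Lys4h was at 1.08-fold (95% confidence interval 0.899 to 1.30, limma adjusted p = 0.785) and Lys1h at 1.07-fold (0.888 to 1.28, limma adjusted p = 0.789). Lys2h was at 1.05-fold (0.876 to 1.26, limma adjusted p = 0.802) and Lys3h at 1.01-fold (0.837 to 1.21, limma adjusted p = 0.986). The median lysine estimate was 0.083 in log2 beside 0.088 over all human probes. Subtraction moved Lys3h the most, from the highest lysine estimate to the lowest, and left Lys1h where it was, at 0.093 against 0.098 without it. The SE does not hold the dye control's own error, which is read from 1 array. Without ratio 1, Lys4h alone of the 4 was called, at 0.19 in log2 (limma adjusted p = 0.0199), in a fit that called 19 of 41 probes higher.

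**Figure D3:**
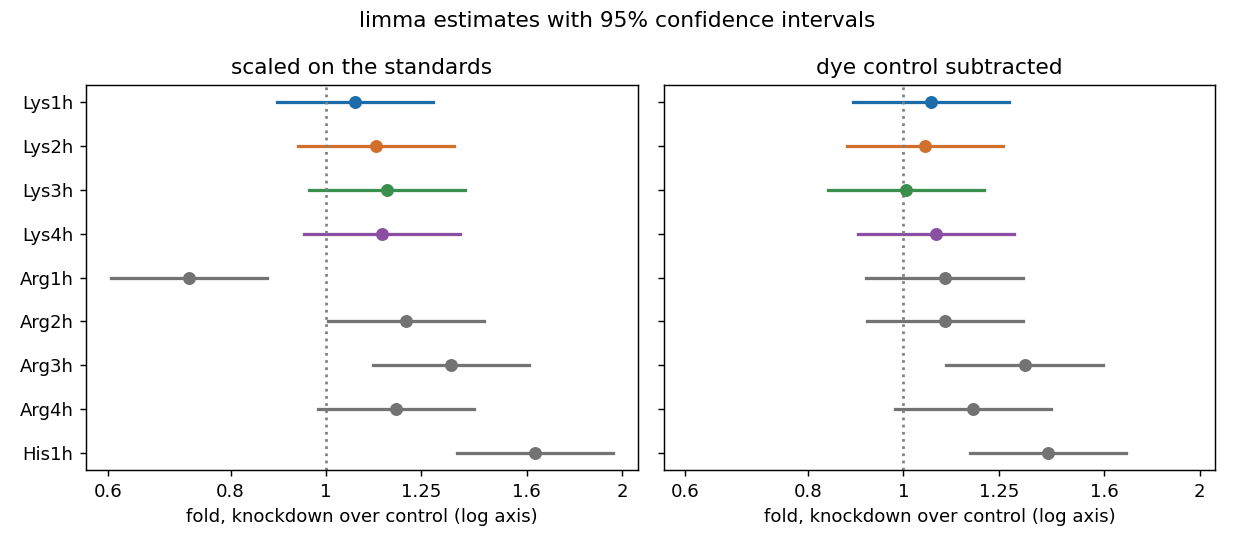
Fold of knockdown over control (log axis) with 95% confidence intervals from limma for the 4 lysine probes and the 5 probes for arginine and histidine, scaled on the standards at the left and with the dye control subtracted at the right. The intervals of all 4 lysine probes include 1 in both panels, from 0.837 at the lowest end to 1.39 at the highest.

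E.c. Lys-2, the bacterial lysine standard, is a tRNA of the same amino acid that no human cell makes. It differed from the human lysine probes on the dye control. It cannot check the scale independently, as it is 1 of the 4 standards whose median was set to 0. In each of the 3 ratios it was a middle value of that median, so its nearness to 0 there is largely set by the centring. Its log2 ratio was 0.026, -0.01 and -0.011 in the 3 ratios, and -0.35 on the dye control, where all 24 of its spots were below the median of the standards. With the dye control subtracted it was therefore at 0.38, 0.34 and 0.34, above every human lysine probe in each ratio. The other 3 standards were at -0.017 (E.c. Tyr-2), 0.017 (E.c. Ala-5) and 0.28 (Yeast Phe-3) on the dye control. Leaving E.c. Lys-2 out of the scale changed the lysine estimates by little, to between 0.097 and 0.21 uncorrected and between 0.024 and 0.13 with the dye control subtracted, and called none of the 4. It did change the count over all probes, to 11 higher and 1 lower uncorrected and to 6 higher with the dye control subtracted.

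Among themselves the 4 lysine probes were compared as 6 pairs. Lys1h was below each of the other 3 in all 3 ratios. Its mean difference was -0.069 ± 0.014 from Lys2h, -0.12 ± 0.14 from Lys3h and -0.093 ± 0.054 from Lys4h in log2 (SD, n = 3 ratios, exact two-sided sign-flip test, p = 0.25 for each, the smallest that 3 ratios allow, and 0.50 adjusted over the 6 pairs). This test and these SDs treat the 3 ratios as independent, though ratios 1 and 2 share knockdown culture 1 and its Cy3 values. The difference between Lys1h and Lys2h was -0.053, -0.075 and -0.079 in the 3 ratios, the steadiest of the 6. Subtraction of the dye control turned it to 0.022 ± 0.014, since the dye control had Lys2h above Lys1h by a similar amount. The other 3 pairs changed sign between ratios, with mean differences of -0.054 ± 0.13 for Lys2h minus Lys3h, -0.024 ± 0.046 for Lys2h minus Lys4h and 0.03 ± 0.092 for Lys3h minus Lys4h (exact p = 0.75 for each). After subtraction the smallest exact p over the 6 pairs was again 0.25, for Lys1h against Lys2h and for Lys2h against Lys4h (-0.042 ± 0.046), and each was 0.75 when adjusted. Lys1h was then no longer below the other 3 in all 3 ratios. Its difference was 0.071 ± 0.14 from Lys3h and -0.020 ± 0.054 from Lys4h, and both changed sign between ratios.

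Spots of the same lysine probe agreed closely except in ratio 2. The SD of the log2 ratio over the spots of a probe was 0.042 to 0.12 in ratio 1, 0.06 to 0.08 in ratio 3 and 0.05 to 0.075 on the dye control. In ratio 2 it was 0.65 for Lys1h, 0.98 for Lys2h, 0.58 for Lys3h and 0.60 for Lys4h. The width was not particular to lysine. Over the spots of a standard the SD was 0.041 to 0.057 in ratio 1 and 0.36 to 0.49 in ratio 2. Those spots also set the scale of ratio 2. The highest and lowest spots of Lys2h in ratio 2 were at 0.80 and -3.08, and single spots of Lys1h, Lys3h and Lys4h reached 2.16, 2.36 and 2.50.

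The channels show where that width lies. Over the spots of a lysine probe, log2 intensities in Cy3 and Atto635 correlated at 0.905 to 0.994 in ratio 1 and 0.655 to 0.963 in ratio 3, and at 0.083 to 0.565 in ratio 2 (15 or 16 spots per probe, which are not independent replicates). For the standards this correlation was 0.986 to 0.992 in ratio 1 and 0.080 to 0.381 in ratio 2 (24 spots each). The Atto635 values of ratio 2 also correlated weakly with those of ratio 1 over the same spot positions, at 0.324 for Lys1h, 0.339 for Lys2h, 0.508 for Lys3h and 0.0742 for Lys4h. Spots in ratio 2 carry the flags of ratio 1, so a poor Atto635 spot of ratio 2 is not flagged, as with the Lys4h spot at 78 beside a median of 520. The value of Lys3h in ratio 2, 0.37, comes from spots between -0.15 and 2.36. Without ratio 2 the lysine estimates were 0.075 for Lys1h, 0.14 for Lys2h, 0.12 for Lys3h and 0.14 for Lys4h, and with the dye control subtracted they were 0.07, 0.045, -0.079 and 0.06, with none called (limma adjusted p from 0.413 to 0.629 and 0.937 for each).

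**Figure D4:**
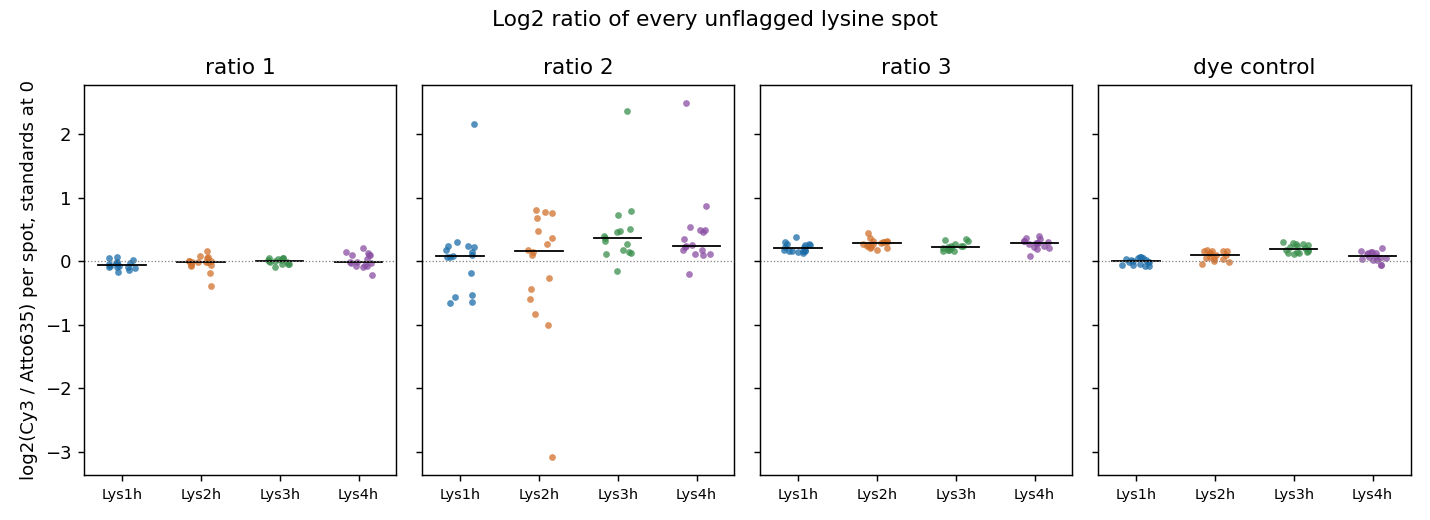
Log2 ratio of Cy3 over Atto635 of every unflagged spot of the lysine probes, with the median of the standards of each array at 0 and a bar at each probe's median. Ratio 3 spots lie between 0.082 and 0.45, all above 0, while ratio 2 spots run from -3.08 to 2.50.

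All 62 unflagged lysine spots of ratio 3 lay above the median of the standards, 16 of Lys1h, 16 of Lys2h, 15 of Lys3h and 15 of Lys4h. Not every standard lay lower: Yeast Phe-3 was at 0.40 in ratio 3, above the median of each lysine probe. In ratio 1 the spots above the median of the standards were 3 of 16 for Lys1h, 7 of 16 for Lys2h, 8 of 15 for Lys3h and 7 of 16 for Lys4h. Ratios 1 and 3, which share no culture, thus differed in how the lysine spots lay against the median of the standards. The difference was not particular to lysine: the median over all human probes was 0.05 in ratio 1 and 0.28 in ratio 3. The share of all human spots above that median was not counted, and spots of 1 array share any error of that array's scale.

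Arginine and histidine are the other basic amino acids, and they were read by 5 probes. The SD over the probes was 0.029, 0.12 and 0.041 for lysine in ratios 1, 2 and 3, against 0.50, 0.45 and 0.38 for these 5. After subtraction of the dye control it was 0.055, 0.052 and 0.085 for lysine, against 0.24, 0.20 and 0.096 for these 5, so in ratio 3 the spreads were close. Arginine tRNAs are charged by RARS1 and histidine tRNA by HARS1. His1h, the histidine probe, was the highest of the 5 at 1.63-fold (95% confidence interval 1.36 to 1.96, limma adjusted p = 3.64e-05), and Arg1h the lowest at 0.726-fold (0.605 to 0.872, adjusted p = 0.0126). On the dye control Arg1h was at -0.60 in log2, and with it subtracted Arg1h was at 0.14 and not called (adjusted p = 0.748). Limma called 0 of the 4 lysine probes, against 2 higher and 1 lower of these 5, beside 5 of all 41 human probes (12.2%). With the dye control subtracted it called 0 lysine probes, against 2 higher and none lower of these 5, beside 3 of 41 (7.32%). At such shares 0 of 4 does not set lysine apart from the human probes as a whole. The median lysine estimate was 0.18 in log2, against 0.27 for these 5 probes, and with the dye control subtracted it was 0.083 for lysine and 0.23 for these 5. The difference between the lists was not tested.

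Each lysine probe had a probe for another amino acid nearer to it than any other lysine probe. The search covered 37 such probes against 3 other lysine probes, and these unequal numbers alone favour a nearest probe outside lysine. The result therefore does not say that lysine probes are unalike. By root mean square distance over the 3 log2 ratios, Met2h (0.039), for methionine, and Gly2h (0.056), for glycine, were nearest to Lys1h, whose median distance from the 37 probes for other amino acids was 0.16. Ser3h, a serine probe, was nearest to both Lys2h (0.029) and Lys4h (0.027), followed by Leu3h for Lys2h (0.039) and Tyr2h for Lys4h (0.049). Asn1h (0.036) and Ala1h (0.039), for asparagine and alanine, were nearest to Lys3h. Within lysine the closest pair was Lys2h and Lys4h at 0.045, and the farthest Lys1h and Lys3h at 0.17. Closeness over 3 ratios, of which 2 have the same Cy3 values, only says that values were alike.

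The authors' deposited table gives a linear ratio for each lysine probe. In that table Lys1h was at 0.993, 1.05 and 1.13 in ratios 1, 2 and 3, and Lys2h at 0.977, 1.08 and 1.13. Lys3h was at 0.894, 1.09 and 1.01 and Lys4h at 0.97, 1.11 and 1.20 in the authors' deposited table. The medians of the 43 probes of the authors' deposited table were 0.987, 1.09 and 1.13 in ratios 1, 2 and 3. Lys1h, Lys2h and Lys4h were, like those medians, lowest in ratio 1 and highest in ratio 3, while Lys3h was highest in ratio 2 and stood at rank 35 and 34 of 40 human probes in ratios 1 and 3 of the authors' deposited table. Over those 43 probes, which are not independent replicates, log2 of the deposited ratios correlated with the ratios described here at 0.662, 0.67 and 0.521 and with the dye control subtracted at 0.968, 0.971 and 0.946. That match is the basis for reading them as knockdown over control divided by the dye control, while how they were centred is unknown. In the same limma fit the authors' deposited ratios put Lys4h at 0.14 in log2, Lys2h at 0.099, Lys1h at 0.097 and Lys3h at -0.0054, none called (adjusted p of 0.500 at the lowest).

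The sign of the lysine estimates depended on the scale. When each array was centred on its median human probe, Lys1h was at -0.11, Lys2h at -0.042, Lys4h at -0.021 and Lys3h at -0.0040 (limma adjusted p = 0.305 at the lowest), and no lysine probe was called in either direction. With the dye control subtracted as well they were at -0.0032, -0.024, 0.015 and -0.089 (adjusted p = 0.425 at the lowest). Loess within each array gave -0.0084 for Lys1h, -0.020 for Lys2h, -0.046 for Lys3h and -0.10 for Lys4h, none called (adjusted p = 0.576 at the lowest).

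**Figure D5:**
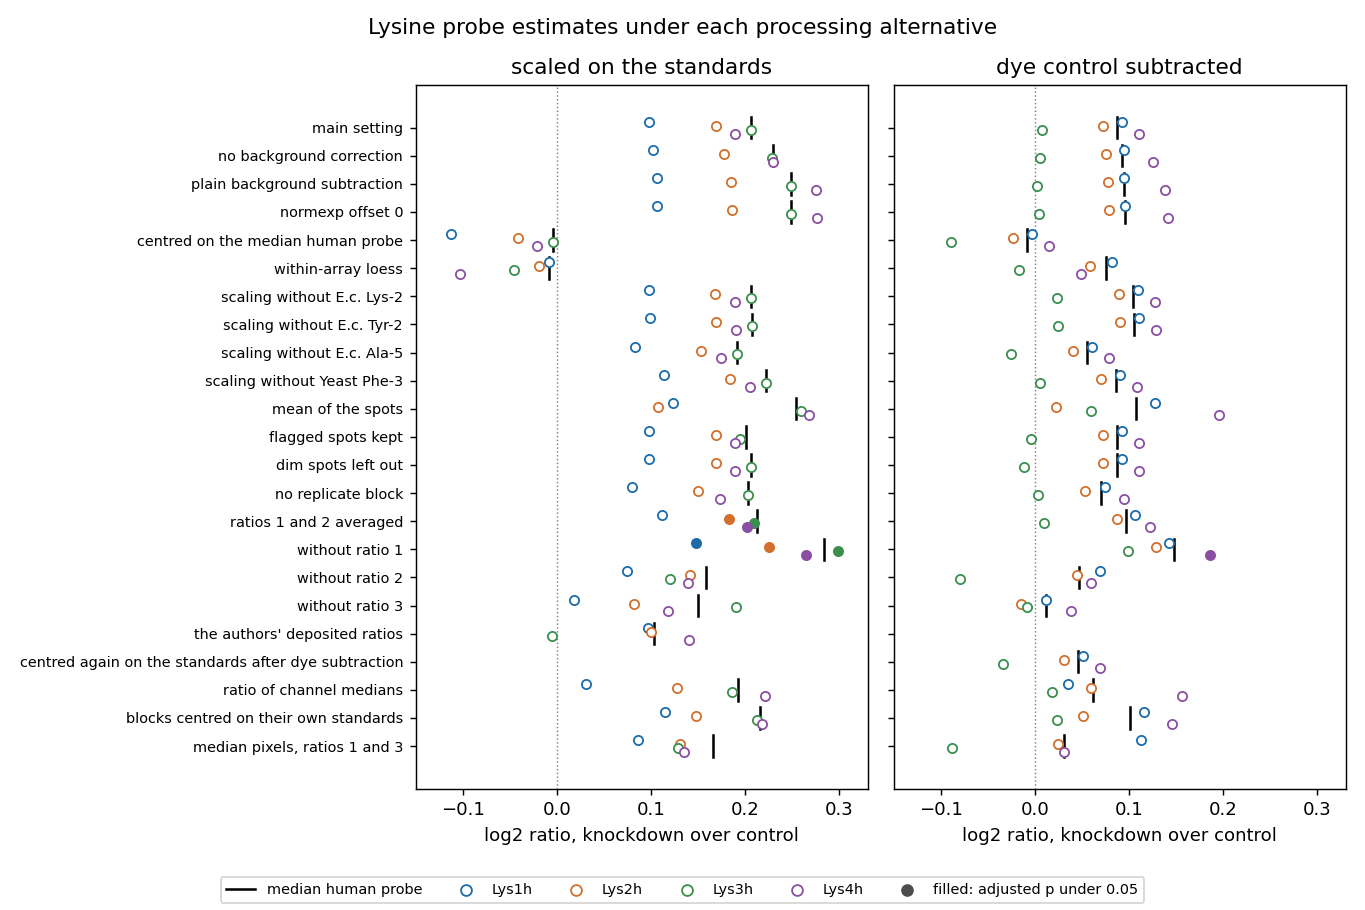
Log2 estimates of knockdown over control for the 4 lysine probes under each processing alternative but the one without scaling, scaled on the standards at the left and with the dye control subtracted at the right, with a bar at the median human probe and filled points where limma's adjusted p was under 0.05. The authors' deposited ratios, drawn at the left, match ratios already divided by the dye control. Filled points appear only without ratio 1 and with ratios 1 and 2 averaged.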

How the data were processed

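The authors deposited scanner tables of spot intensity in 2 channels with local background, 800 spots per array, 24 per standard, per the file headers, with saturation in percent and a signal-to-noise score. They also deposited a table of linear ratio values per probe. The labels name no scanner software. The dye control table belongs to no labelled sample, and its intensities were treated like those of the other arrays.

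The normexp method of limma 3.58.1 (R 4.3.3), with an offset of 50, was applied to the background-subtracted means. Each probe's log2 ratio is the median of its unflagged spots, with the 4 standards' median set to 0. The dye control's centred ratio was subtracted as a second estimate. Both were fitted with lmFit and eBayes over 41 human probes, with the knockdown RNA as a block (correlation 0.5, assumed), and Benjamini-Hochberg adjustment. The fit was tested on simulated data with planted changes larger than the main lysine estimates. Those data lacked the shared Cy3 values, the wide spots of ratio 2 and the disagreement between standards, so these were not covered. Probe differences used exact sign-flip tests. Named probes are the lysine probes, the standards, the highest and lowest arginine or histidine probe, and the 2 probes nearest each lysine probe. Members and lists were chosen with earlier results of these data known. Alternatives numbered 19 planned and 4 added after seeing the data. The number of arrays limits precision. Cultures were grown separately, per the labels.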

Additional observations from a re-analysis of the deposited data

Results flagged for a closer look

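On the dye control, which the uncorrected comparison leaves out, all spots of Lys3h lay above the median of the standards, with a log2 ratio of 0.199, and all spots of the bacterial standard E.c. Lys-2 lay below it, at -0.353. Lys3h was not extreme there, at rank 13 of 41 human probes from the top, and all spots of the standard Yeast Phe-3 also lay above that median, at 0.284. Spots printed with water, which enter no comparison, carried signal by mean pixels: their median Cy3 intensity was 4207.5 on the array of ratio 1, 11207 on that of ratio 3 and 5925 on the dye control, while by median pixels it was 33, 290 and 116. By mean pixels, water was thus brighter in Cy3 than Lys3h and Lys4h on each of these arrays. Lys1h was brighter than water on the array of ratio 1 and the dye control, and Lys2h on the former only. By median pixels every lysine probe was brighter than water. The part of the water signal in the lysine values was not tested.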

How the results depend on the processing

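None of the 4 lysine probes was called in the main estimates, and 3 of the alternatives changed that uncorrected: 4 were called without scaling (log2 1.05, 1.12, 1.15 and 1.14 for Lys1h to Lys4h, with 40 of 41 probes called), 3 with ratios 1 and 2 averaged (Lys2h 0.18, Lys3h 0.21, Lys4h 0.20) and 4 without ratio 1. Leaving out each ratio in turn gave 0.018 to 0.15 for Lys1h, 0.082 to 0.22 for Lys2h, 0.12 to 0.30 for Lys3h and 0.12 to 0.26 for Lys4h, with 0 to 4 lysine probes and 0 to 33 of all probes called. With the dye control subtracted these ranges were 0.012 to 0.14, -0.014 to 0.13, -0.079 to 0.099 and 0.039 to 0.19, with 0 to 1 and 0 to 19 called. Without ratio 2, Lys3h was at -0.079, and without ratio 3 it was at -0.0088 and Lys2h at -0.014. The fits without ratio 1 and with the average keep 2 values per probe.

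Signs of the uncorrected estimates turned when arrays were centred on the median human probe (-0.11, -0.042, -0.0040 and -0.021 for Lys1h to Lys4h), with loess (-0.0084, -0.020, -0.046 and -0.10) and, for Lys3h, in the authors' deposited ratios (-0.0054). Under the first 2 settings the median human estimate was -0.0040 and -0.0084, against 0.21 on the standards' scale. With the dye control subtracted, median centring gave -0.0032, -0.024 and -0.089 for Lys1h, Lys2h and Lys3h. Lys3h, at 0.0073 in the main estimate, also turned with loess (-0.017), without E.c. Ala-5 in the scale (-0.025), with flagged spots kept (-0.0045), without dim spots (-0.012), centred again on the standards after subtraction (-0.034) and by median pixels (-0.088). None of these was called.

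The count over all 41 probes moved more than the lysine values. Against 5 uncorrected it was 8 centred on the median human probe, 2 with loess, 12 without E.c. Lys-2 and 11 without Yeast Phe-3 in the scale, 1 with the mean of spots, 21 with no replicate block, 29 with ratios 1 and 2 averaged, 3 without ratio 2 and 2 by median pixels. With the dye control subtracted, against 3, it was 12 centred on the median human probe, 5 with loess, 6 without E.c. Lys-2, 1 with flagged spots kept, 8 with no replicate block, 11 with ratios 1 and 2 averaged and 1 by the ratio of channel medians. It was 0 (6 at an unadjusted p under 0.05) with plain subtraction, with a normexp offset of 0 and without E.c. Ala-5, 0 (4) with the mean of spots, 0 (3) by median pixels, 0 (1) without scaling and 0 (1) without ratio 3. The cause was not tested. Treating the ratios as independent, with no replicate block, called 0 lysine probes in either estimate. Settings by channel medians, blocks, median pixels and repeated centring were chosen after seeing the data.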

Other observations

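Lys4h was the lysine probe whose ratio differed most between odd and even blocks in ratio 1. Its log2 ratio before scaling was 0.81 in the odd-numbered blocks and 0.64 in the even-numbered ones, a difference of 0.17 that ranked 2 among 41 human probes, whose median difference was -0.016. In ratio 2, whose spots were wide, Lys2h (0.48, rank 3) and Lys1h (-0.27, rank 38) differed more than Lys4h (0.20, rank 8), and Lys3h differed by -0.11. On the dye control the difference for Lys4h was 0.086 (rank 4, human median 0.022), and in ratio 3 it was -0.031 (rank 14, human median -0.045). Lys1h, Lys2h and Lys3h differed by -0.053, 0.056 and -0.022 in ratio 1. With each block centred on its own standards Lys4h was at 0.22 in log2 and Lys1h at 0.11, and none of the 4 was called (limma adjusted p = 0.234 at the lowest).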
